A study of Homo sapiens with 6 samples.

Results

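The canonical Wnt pathway genes described here are 34 genes chosen by symbol: ligands, receptors, Dishevelled transducers, the destruction complex, beta-catenin, TCF and LEF transcription factors, secreted antagonists and feedback genes. All 34 were found among the 23284 gene symbols listed in each of 6 RNA-seq libraries. The libraries came from HEC-1B, an established human endometrioid carcinoma cell line, in a series that sorted cells by activity of aldehyde dehydrogenase (ALDH), a marker of stem-like tumour cells. The series asks how expression goes with the presence or absence of a faster move of cells into the ALDH1A1-high state out of the ALDH1A1-low one. Of the 3 groups, each with 2 libraries, the first is HEC-1B with the label of high ALDH potential and accelerated transition (high-potential accelerated). The second is HEC-1B without that label, also accelerated (HEC-1B accelerated), and the last is HEC-1B labelled as passing from high to low (HEC-1B high-to-low). The name "ALDH-high" stands in the descriptions of all 6 libraries, the high-to-low ones included, and no source used here says how the high-potential cells were obtained or whether the libraries of a group came from separate cultures.

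In Wnt signalling, secreted lipid-modified ligands bind a Frizzled receptor and an LRP5 or LRP6 co-receptor at the cell surface. Without a ligand, a complex built on Axin and APC lets the kinases CK1 and GSK3 phosphorylate beta-catenin, which is then degraded; with a ligand, Dishevelled proteins disable that complex, and beta-catenin builds up and acts with TCF and LEF factors in the nucleus. Several targets feed back on the pathway, among them AXIN2, NKD1, DKK1, LGR5 and the ubiquitin ligase genes RNF43 and ZNRF3. In the endometrium the pathway is known for its part in gland growth, and mutations of the beta-catenin gene CTNNB1 recur in endometrioid carcinoma. Because beta-catenin is controlled mainly as a protein, mRNA levels do not report the activity of the pathway.

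Depth relative to high-potential replicate 1, read from ratios of low values, lay between 0.807 and 1.07. ALDH1A1, the marker behind the sort, was 352.5 and 303.6 FPKM in high-potential cells, 26.7 and 316.9 FPKM in HEC-1B accelerated cells, and 28.4 and 9.44 FPKM in high-to-low cells. HEC-1B accelerated replicate 1 thus lay inside the high-to-low range for the sorted marker. Of 6 epithelial markers, KRT8, KRT18, KRT19 and PAX8 stood at 16.9 FPKM or above in every library and EPCAM at 2.16 or above, while CDH1, the E-cadherin gene, stayed at or below 0.0868 FPKM. Markers of endothelium reached 0.92 FPKM at most (CDH5) and of fibroblasts 0.414 (COL1A1); their summed levels were 0.0113 to 0.991 and 0.12 to 0.603 FPKM across libraries.

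The promoters of 5 genes on which the results turn are shown first. They are FZD1, CTNNB1, DKK1 and the neighbouring ligand genes WNT6 and WNT10A. FZD1 and CTNNB1 are members with an unadjusted p under 0.05 in both comparisons of the high-potential group. WNT7B met this too, but no promoter was listed for it. DKK1 is a target listed above 0 in high-potential cells alone. Each line gives the 150 bases before the RefSeq start on the plus strand of GRCh38.p14, 5′ to 3′; capitals mark matches on either strand to the TCF motif letters CTTTGAT or CTTTGAA, or to the GC box GGGCGG.
FZD1, chr7:91264283-91264432: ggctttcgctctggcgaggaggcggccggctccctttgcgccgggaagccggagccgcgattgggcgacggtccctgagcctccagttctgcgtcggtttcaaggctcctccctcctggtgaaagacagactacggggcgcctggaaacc
CTNNB1, chr3:41199355-41199504: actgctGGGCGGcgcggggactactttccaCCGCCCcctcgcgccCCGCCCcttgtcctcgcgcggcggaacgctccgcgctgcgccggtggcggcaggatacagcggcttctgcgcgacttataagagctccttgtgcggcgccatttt
DKK1, chr10:52314131-52314280: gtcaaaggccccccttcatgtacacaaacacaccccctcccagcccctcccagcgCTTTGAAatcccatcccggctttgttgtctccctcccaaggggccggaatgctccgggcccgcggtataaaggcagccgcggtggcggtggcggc
WNT6, chr2:218859655-218859804: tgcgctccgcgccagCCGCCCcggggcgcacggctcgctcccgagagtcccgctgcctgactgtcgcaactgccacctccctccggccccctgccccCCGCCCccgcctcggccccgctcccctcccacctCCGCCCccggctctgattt
WNT10A, chr2:218880702-218880851: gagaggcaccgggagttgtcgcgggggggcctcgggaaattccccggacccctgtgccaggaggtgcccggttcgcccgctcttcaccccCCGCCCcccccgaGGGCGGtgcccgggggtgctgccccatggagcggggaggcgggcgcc

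Promoters were listed for 23 of the 34 members. WNT7B, AXIN2, NKD1, LGR5 and ZNRF3 are among those without one, so they were not searched. Over windows of this length, DKK1 was the 1 member of these 23 with a TCF match, whose first base lies at -95 from the start. Either TCF motif occurred in 3.3% of all 35116 listed promoters. The GC box occurred in 17 of 30 member promoters and in 36.8% of all. The absence of a match says only that these letters are not in this window.

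Of the 34 members, 24 reached 1 FPKM in at least 2 libraries and were tested, and 10 stayed below that filter. The most abundant was CTNNB1, with 185.2 to 324.5 FPKM, followed by CSNK1A1, the gene of the CK1 alpha kinase, with 93.7 to 153.2 FPKM, and FZD6, with 37.9 to 54.0 FPKM. FPKM is scaled per kilobase, so these levels can be set beside each other. In contrast, 6 of the feedback or target genes among the members were low in every library: AXIN2 was at most 0.565 FPKM, NKD1 at most 0.212, LGR5 at most 0.158, DKK1 at most 0.141, LEF1 at most 0.0834 and RNF43 at most 0.0518 FPKM. ZNRF3 was higher, at 3.28 to 5.25 FPKM, and of the reported targets that are no members MYC (30.5 to 68.5 FPKM) and CCND1 (83.8 to 143.6 FPKM) were abundant in every library. The plot of all members by library shows these levels.

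**Figure D1:**
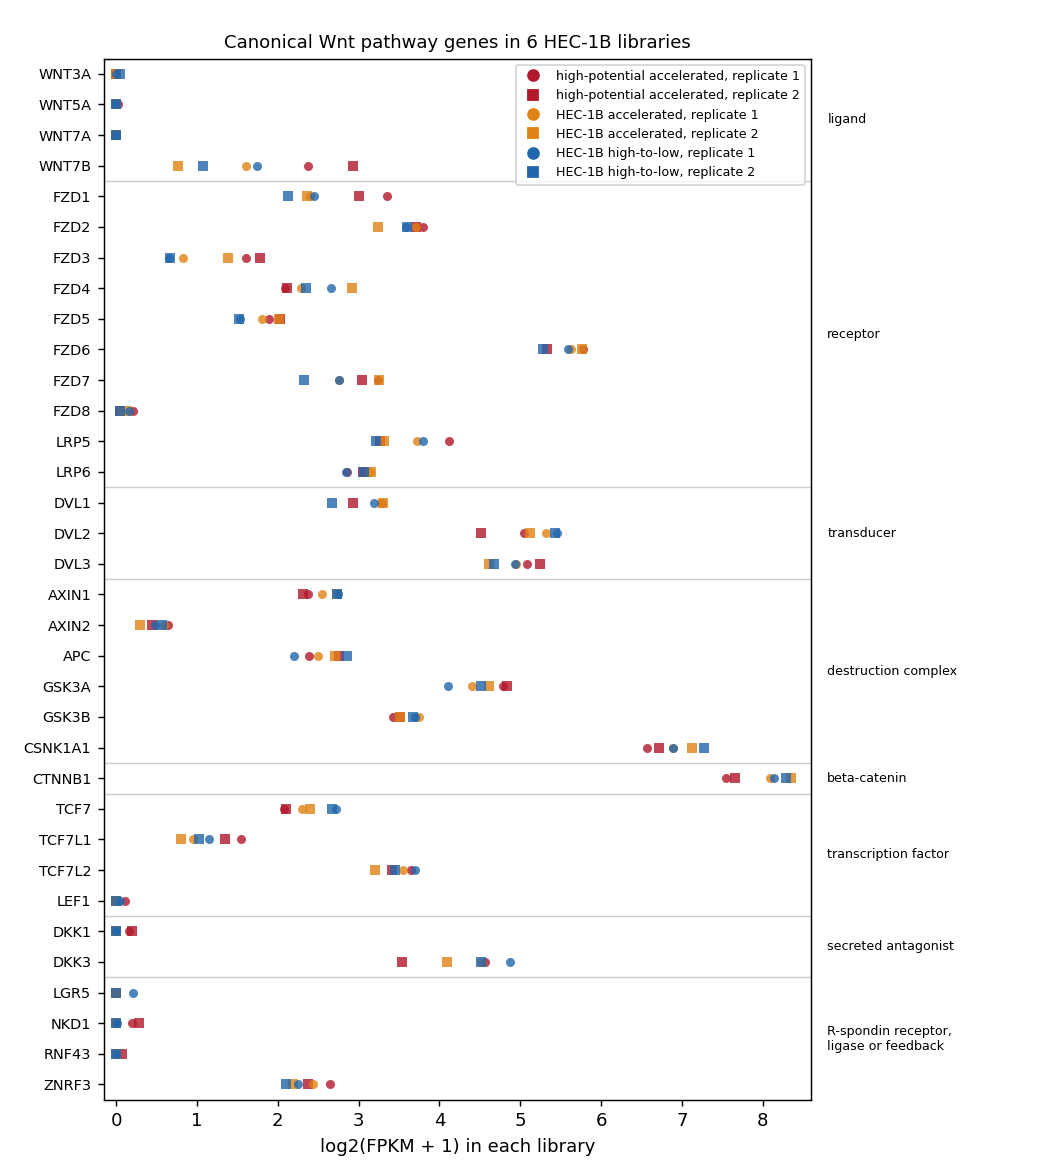
Level of each of the 34 Wnt genes in each library as log2(FPKM + 1), grouped by role; colours are the groups, circles replicate 1 and squares replicate 2. CTNNB1 and CSNK1A1 are highest, the high-potential libraries lie apart from the others for WNT7B, FZD1 and CTNNB1 among other members, and 10 genes stay near 0.

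No member passed limma's adjusted threshold of 0.05 in any comparison, on a fit across 12135 genes. Between high-potential accelerated and HEC-1B accelerated libraries 0 of 24 members passed, where 0.494% of all tested genes did. Of all genes, 0.288% passed as higher and 0.206% as lower. At an unadjusted p under 0.05 there were 3 members (12.5%), against 14.3% of all genes. By direction, 2 were higher, against 5.69% of all genes, and 1 was lower, against 8.63%. A further count is of groups without overlap: 14 members (58.3%) had this, against 43.4% of all genes. Between high-potential accelerated and high-to-low libraries 0 of 24 passed, where 0.799% of all genes did (0.396% higher and 0.404% lower). There, 6 members (25%) had an unadjusted p under 0.05, against 18.4% of all genes: 3 were higher, against 7.57%, and 3 lower, against 10.8%. FZD3, 1 of the 3 higher, passed the filter only with the high-potential libraries. Of the 24, 17 (70.8%) did not overlap, against 51.1%. Between HEC-1B accelerated and high-to-low libraries 0 of 24 passed, where 0.0165% of all genes did, while 0 had an unadjusted p under 0.05, against 0.972% (0.429% higher and 0.544% lower), and 9 (37.5%) did not overlap, against 24.1%.

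The median log2 difference over the tested members was 0.01 between high-potential and HEC-1B accelerated libraries (0.00 over all tested genes), with 12 members positive and 12 negative. It was 0.14 between high-potential and high-to-low libraries (-0.01 over all genes), with 14 positive and 10 negative, and 0.01 between HEC-1B accelerated and high-to-low libraries (-0.02 over all genes), with 13 positive and 11 negative. The pathway as listed therefore had no common direction, and the members that stand out do so one by one. The comparison of high-potential with high-to-low libraries joins a difference in the high-potential label with one in the transition, and these cannot be told apart. The first and second comparisons share the high-potential libraries, so their values below are given side by side and do not support each other.

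**Figure D2:**
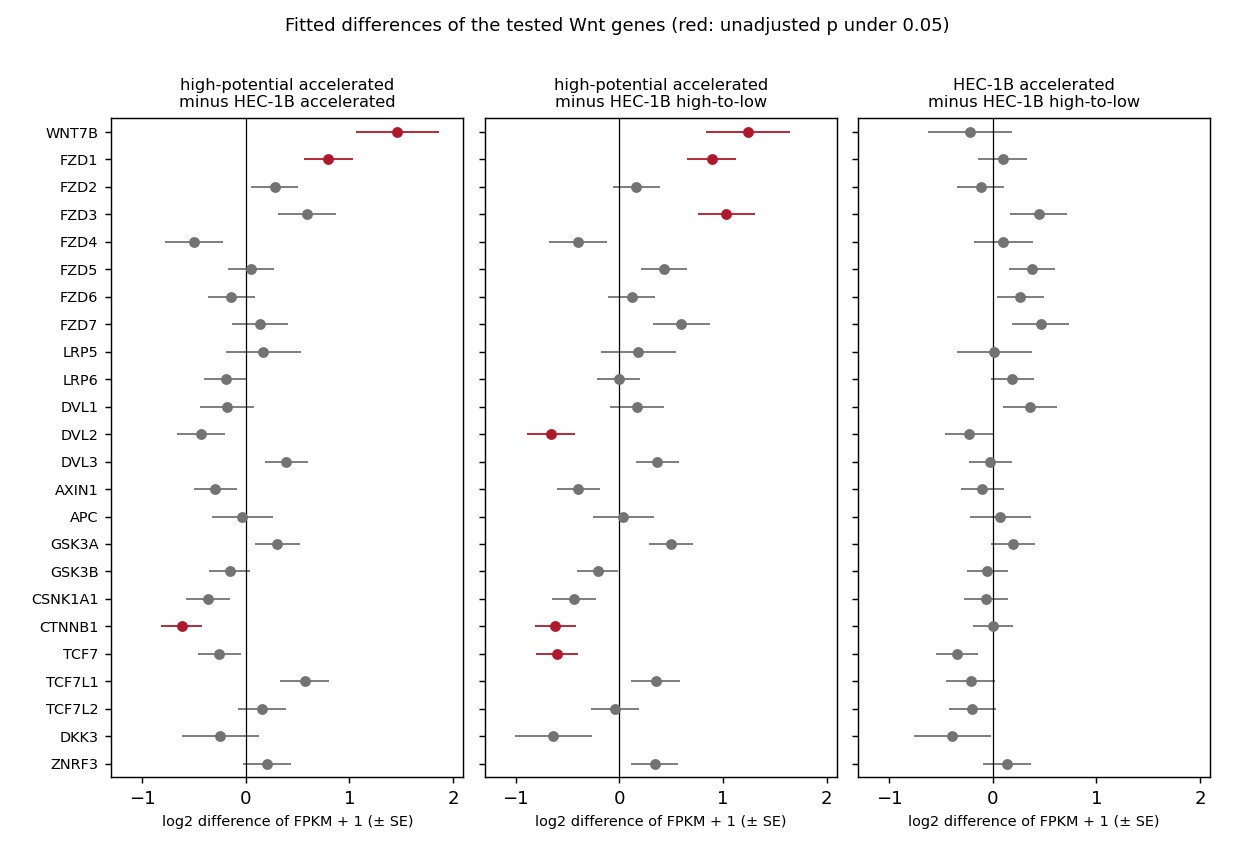
Fitted log2 difference of FPKM + 1 for the 24 tested members in the 3 comparisons, with its standard error; red marks an unadjusted p under 0.05. WNT7B and FZD1 lie furthest above 0 in the high-potential against HEC-1B accelerated panel and CTNNB1 furthest below, while no member is red in the HEC-1B accelerated against high-to-low panel.

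Among the ligands, only WNT7B, which encodes a ligand of the canonical pathway, was tested. It was 4.20 and 6.60 FPKM in high-potential cells, 2.06 and 0.702 FPKM in HEC-1B accelerated cells, and 2.35 and 1.10 FPKM in high-to-low cells. Both high-potential libraries lay above all others, and the other groups overlapped. The group means were 5.40 ± 1.70, 1.38 ± 0.959 and 1.73 ± 0.885 FPKM (SD, n = 2 each). The log2 difference of high-potential from HEC-1B accelerated libraries was 1.46 (SE 0.402, limma adjusted p = 0.185, unadjusted p = 0.0101), and from high-to-low libraries 1.24 (SE 0.402, limma adjusted p = 0.187). HEC-1B accelerated minus high-to-low was -0.22 (limma adjusted p = 1). WNT7A is listed at 0 in all 6 libraries; WNT5A, a ligand known mainly for signalling without beta-catenin, is listed above 0 in high-potential replicate 1 alone (0.0169 FPKM) and WNT3A in high-to-low replicate 2 alone (0.0352 FPKM). Each of those values is the only one of its gene, so it may be as little as 1 fragment.

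The ligand genes outside the members bear on the same point. WNT10A, a ligand gene next to WNT6 in the order of listed genes on chromosome 2, was 4.95 and 14.5 FPKM in high-potential cells, 0.0902 and 0 FPKM in HEC-1B accelerated cells, and 0.195 and 0 FPKM in high-to-low cells. Both high-potential libraries lay above all others. WNT6 was 1.34 and 1.06 FPKM in high-potential cells and is listed at 0 in the other 4 libraries. Both genes passed the filter on low values only through the high-potential libraries, so that a difference was fixed by the filter and is given as a description. The log2 difference of WNT10A was 3.13 from high-to-low (SE 0.456, limma adjusted p = 0.0496, between 0.022 and 0.303 over 15 alternatives) and 3.20 from HEC-1B accelerated (SE 0.456, limma adjusted p = 0.0562). For WNT6 it was 1.13 in both comparisons.

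Summed over all 19 Wnt ligand genes, the level was 18.0 and 27.7 FPKM in high-potential cells, 5.15 and 5.17 FPKM in HEC-1B accelerated cells, and 4.88 and 6.03 FPKM in high-to-low cells. WNT10A made up 27.5 and 52.4% of that sum in high-potential cells, and WNT7B 23.3 and 23.8%. In the other libraries WNT7B held 39.9 and 13.6% (HEC-1B accelerated) and 48.2 and 18.3% (high-to-low), beside WNT3 and WNT10B. In bulk RNA, fewer cells making a transcript and less of it per cell cannot be told apart. The stacked plot of ligand genes shows the difference in height and make-up.

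**Figure D3:**
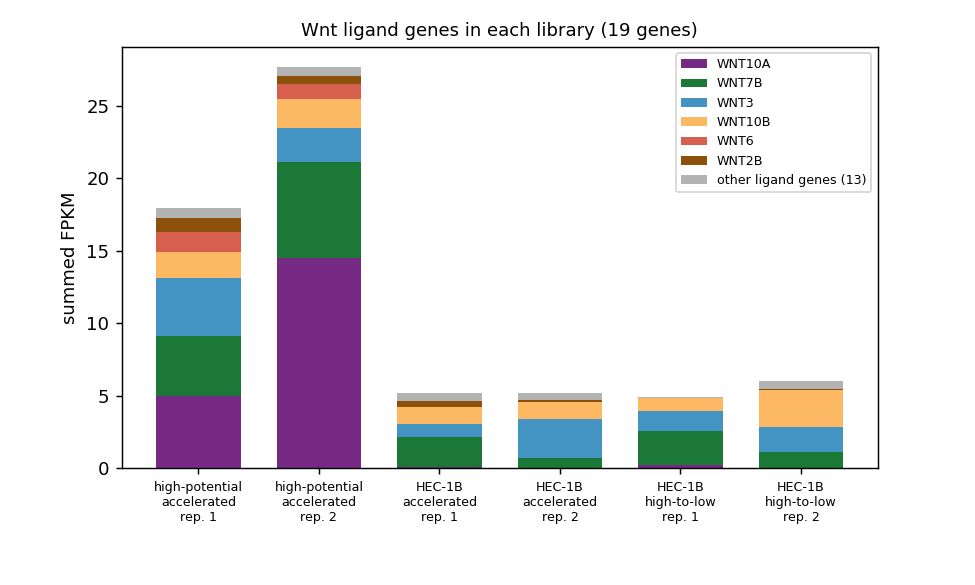
Summed FPKM of the 19 Wnt ligand genes in each library, stacked by gene. The high-potential libraries reach 18.0 and 27.7 FPKM, with WNT10A and WNT7B the broadest bands in replicate 2; the other 4 libraries lie between 4.88 and 6.03 FPKM.

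PORCN, which encodes the acyltransferase that adds the lipid that Wnt ligands need for secretion, was 8.75 and 14.6 FPKM in high-potential cells, 4.58 and 2.65 in HEC-1B accelerated cells, and 4.48 and 3.67 FPKM in high-to-low cells. The high-potential libraries did not overlap the others, but neither difference passed: 1.45 against HEC-1B accelerated (SE 0.331, limma adjusted p = 0.131) and 1.29 against high-to-low (SE 0.331, limma adjusted p = 0.125). WLS, the carrier that takes ligands to the cell surface, was 41.7 and 22.1 FPKM in high-potential cells, 41.9 and 38.8 in HEC-1B accelerated cells, and 43.6 and 35.3 FPKM in high-to-low cells.

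Of the 8 Frizzled genes, FZD6 alone held 52.7 to 62.4% of their summed FPKM in each library. FZD6 was 54.0 and 39.3 FPKM in high-potential cells, 48.6 and 53.5 in HEC-1B accelerated cells, and 47.2 and 37.9 FPKM in high-to-low cells, so HEC-1B accelerated and high-to-low did not overlap and the other pairs of groups did. The summed level of the 8 genes was 83.7 ± 12.8, 81.9 ± 5.63 and 69.6 ± 9.46 FPKM in high-potential, HEC-1B accelerated and high-to-low libraries (SD, n = 2 each). FZD2 came next in level, at 12.5 ± 0.546, 10.3 ± 2.60 and 11.1 ± 0.105 FPKM in that order of groups, and FZD8 was lowest, between 0.0326 and 0.153 FPKM.

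FZD1 and FZD3 were the receptor genes with an unadjusted p under 0.05. FZD1 was 9.17 and 7.05 FPKM in high-potential cells, 4.29 and 4.13 in HEC-1B accelerated cells, and 4.45 and 3.36 FPKM in high-to-low cells. Both high-potential libraries lay above all others. The log2 difference was 0.80 from HEC-1B accelerated (SE 0.238, limma adjusted p = 0.209, unadjusted p = 0.0144) and 0.89 from high-to-low libraries (SE 0.238, limma adjusted p = 0.133), while HEC-1B accelerated minus high-to-low was 0.10. FZD1 held 9.89 and 9.44% of the Frizzled sum in high-potential cells, 5.51 and 4.80% in HEC-1B accelerated cells, and 5.84 and 5.33% in high-to-low cells.

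FZD3 was 2.05 and 2.44 FPKM in high-potential cells, 0.772 and 1.61 in HEC-1B accelerated cells, and 0.575 and 0.589 FPKM in high-to-low cells. The 3 groups did not overlap, in that order of level. Outside high-potential cells FZD3 reached 1 FPKM in HEC-1B accelerated replicate 2 alone. It thus passed the filter on low values only with the high-potential libraries, and its differences are given as a description. The log2 difference of high-potential from high-to-low libraries was 1.03 (SE 0.277, limma adjusted p = 0.135, unadjusted p = 0.00898), from HEC-1B accelerated libraries 0.59 (limma adjusted p = 0.407), and HEC-1B accelerated minus high-to-low was 0.44 (limma adjusted p = 1). Of the 40 tested genes nearest to FZD3 on its chromosome, 4 lay below 0 in the difference of high-potential from high-to-low, with a median of 0.46; the part of the neighbourhood in the FZD3 difference was not tested.

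The other receptors had smaller differences. FZD4, known as a receptor in vessel growth, had 3.25 and 3.34 FPKM in high-potential cells, 3.86 and 6.59 in HEC-1B accelerated cells, and 5.30 and 4.08 FPKM in high-to-low cells, and was the Frizzled gene with the most negative difference (-0.50 from HEC-1B accelerated, limma adjusted p = 0.496). FZD5 and FZD7 were higher in high-potential than in high-to-low libraries by 0.43 and 0.60 without passing (limma adjusted p = 0.367 and 0.316). On chromosome 2, their 40 nearest tested genes had medians of 0.32 and 0.32 in that difference, with 8 and 9 below 0. The part of the neighbourhood in these differences was not tested. The co-receptor genes did not separate the high-potential libraries from both other groups. LRP5 spread widely within groups, with 16.3 and 8.59 FPKM in high-potential cells, 12.2 and 8.92 in HEC-1B accelerated cells, and 12.9 and 8.28 FPKM in high-to-low cells, while LRP6 stayed between 6.18 and 7.90 FPKM, highest in HEC-1B accelerated.

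The Dishevelled genes, which pass the signal from Frizzled to the destruction complex, did not share a direction. DVL2 was 32.2 and 21.9 FPKM in high-potential cells, 38.8 and 33.7 in HEC-1B accelerated cells, and 43.0 and 42.1 FPKM in high-to-low cells. The 3 groups did not overlap, with high-potential lowest. Its log2 difference was -0.66 from high-to-low (SE 0.231, limma adjusted p = 0.211, unadjusted p = 0.027) and -0.43 from HEC-1B accelerated libraries (limma adjusted p = 0.462). DVL3 had the opposite sign, with 33.0 and 37.0 FPKM in high-potential cells, 29.8 and 23.5 in HEC-1B accelerated cells, and 29.5 and 24.5 FPKM in high-to-low cells (0.39 from HEC-1B accelerated, limma adjusted p = 0.466). DVL1 stayed between 5.37 and 8.90 FPKM.

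In the destruction complex, 5 of 6 genes were tested while 0 had an unadjusted p under 0.05 in any comparison. AXIN1, the scaffold, was 4.20 and 3.98 FPKM in high-potential cells, 4.85 and 5.65 in HEC-1B accelerated cells, and 5.72 and 5.64 FPKM in high-to-low cells (log2 difference -0.30 from HEC-1B accelerated and -0.39 from high-to-low, limma adjusted p = 0.59 and 0.371). CSNK1A1, whose kinase primes beta-catenin for GSK3, was 93.7 and 104.1 FPKM in high-potential cells, 117.8 and 138.6 in HEC-1B accelerated cells, and 117.3 and 153.2 FPKM in high-to-low cells (-0.37 and -0.44, limma adjusted p = 0.503 and 0.341). Both genes were lower in each high-potential library than in any other, without passing. The kinase genes GSK3A and GSK3B differed in sign: GSK3A was 27.1 ± 0.785, 21.8 ± 2.23 and 19.1 ± 4.04 FPKM, and GSK3B 10.1 ± 0.474, 11.4 ± 1.43 and 11.8 ± 0.134 FPKM, in high-potential, HEC-1B accelerated and high-to-low libraries (SD, n = 2 each). APC, a tumour suppressor and scaffold of the complex, spread over 3.60 and 6.23 FPKM in high-to-low cells, a range that holds its values in the other groups.

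CTNNB1, which encodes beta-catenin itself, was 185.2 and 200.4 FPKM in high-potential cells, 271.4 and 324.5 in HEC-1B accelerated cells, and 281.7 and 311.6 FPKM in high-to-low cells. Both high-potential libraries lay below all others, and the HEC-1B accelerated libraries spanned the high-to-low ones. The log2 difference was -0.62 from HEC-1B accelerated (SE 0.197, limma adjusted p = 0.23, unadjusted p = 0.0187) and -0.62 from high-to-low libraries (SE 0.197, limma adjusted p = 0.18, unadjusted p = 0.0189), while HEC-1B accelerated minus high-to-low was 0.00 (SE 0.197, limma adjusted p = 1). The high-potential mean was 0.647 times the HEC-1B accelerated mean and 0.65 times the high-to-low mean.

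The neighbours of CTNNB1 on chromosome 3 had the same difference. Among the 40 tested genes nearest to it in the RefSeq gene order, 20 on each side, 38 were lower in high-potential than in HEC-1B accelerated libraries, with a median log2 difference of -0.63. Against high-to-low libraries 39 of 40 were lower, with a median of -0.65. Between HEC-1B accelerated and high-to-low libraries the median of the 40 was -0.05 with 23 below 0. Over all tested genes 50.4 and 49.2% had a positive difference in the first 2 comparisons. The nearest tested genes, ZNF621 on one side and ULK4 on the other, had -0.47 and -0.86 against HEC-1B accelerated. What moves the neighbourhood was not tested.

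**Figure D4:**
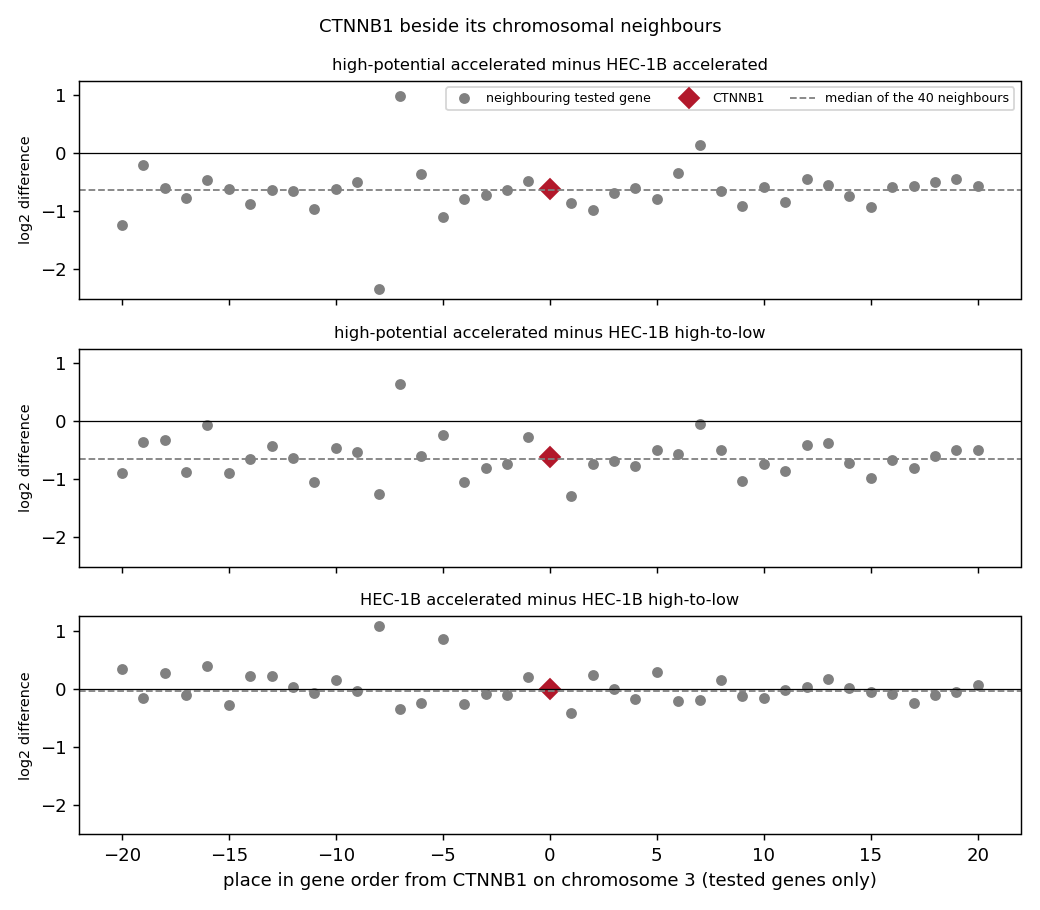
Log2 difference of CTNNB1 (red diamond) and of the 20 nearest tested genes on each side of it on chromosome 3 (grey), by place in the gene order, in the 3 comparisons; the dashed line is the median of the neighbours. CTNNB1 lies at that median in each panel: -0.62 beside -0.63, -0.62 beside -0.65 and 0.00 beside -0.05.

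The neighbourhood was read in the same way for the other members. GSK3B, also on chromosome 3, differed by -0.16 from HEC-1B accelerated, while 38 of its 40 neighbours were below 0 with a median of -0.41. AXIN1, near an end of chromosome 16, had -0.30, while 27 of its 28 neighbours were below 0 with a median of -0.66. DVL2 differed by -0.66 from high-to-low libraries, where 32 of its 40 neighbours were below 0 with a median of -0.27. For WNT7B and FZD1 the neighbours did not share the size of the difference from HEC-1B accelerated. Their medians were 0.12 and 0.09, against 1.46 and 0.80 for the genes themselves. Below 0 were 10 of the 40 neighbours of WNT7B and 15 of the 40 of FZD1. The neighbours of WNT10A had a median of 0.17 in that comparison, against 3.20 for the gene, with 11 of 40 below 0. In the difference from high-to-low their median was 0.32, against 3.13 for the gene, with 4 of 40 below 0.

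Among the transcription factors, TCF7L2 was the most abundant, with 11.6 and 9.66 FPKM in high-potential cells, 10.7 and 8.23 in HEC-1B accelerated cells, and 12 and 9.90 FPKM in high-to-low cells, and its groups overlapped. TCF7 was 3.23 and 3.30 FPKM in high-potential cells, 3.91 and 4.27 in HEC-1B accelerated cells, and 5.58 and 5.37 FPKM in high-to-low cells. The 3 groups did not overlap, with high-potential lowest, and the log2 difference from high-to-low was -0.60 (SE 0.204, limma adjusted p = 0.201, unadjusted p = 0.0242). TCF7L1, known mainly as a repressor of Wnt targets, was 1.91 and 1.54 FPKM in high-potential cells, 0.937 and 0.738 in HEC-1B accelerated cells, and 1.22 and 1.04 FPKM in high-to-low cells (0.57 from HEC-1B accelerated, limma adjusted p = 0.352, unadjusted p = 0.0514). LEF1, itself a target of the pathway in many tissues, is listed at 0 in 4 libraries, and at 0.0834 FPKM in high-potential replicate 1 and 0.0348 FPKM in high-to-low replicate 1.

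The antagonists and feedback genes fell into an expressed and a barely detected set. DKK3, a member of the Dickkopf family whose role in Wnt signalling is less clear than that of DKK1, was 22.7 and 10.6 FPKM in high-potential cells, 21.8 and 16.0 in HEC-1B accelerated cells, and 28.2 and 21.8 FPKM in high-to-low cells. The spread between the high-potential libraries exceeded the differences between groups. ZNRF3, which encodes a ligase that removes Frizzled receptors from the surface, was 5.25 and 4.20 FPKM in high-potential cells, 4.39 and 3.55 in HEC-1B accelerated cells, and 3.74 and 3.28 FPKM in high-to-low cells (0.34 for high-potential minus high-to-low, limma adjusted p = 0.49). Its paralogue RNF43 is listed above 0 in high-potential replicate 2 alone, at 0.0518 FPKM, and LGR5, an R-spondin receptor and stem cell marker, in high-to-low replicate 1 alone, at 0.158 FPKM.

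NKD1 and DKK1 were the low members without overlap between high-potential and the other libraries. NKD1, a feedback inhibitor that binds Dishevelled, was 0.15 and 0.212 FPKM in high-potential cells, is listed at 0 in both HEC-1B accelerated libraries, and was 0.00995 and 0 FPKM in high-to-low cells. After correction for relative depth, these are whole multiples of the lowest value, within 0.03 of a whole number: 14 and 16 times it in high-potential cells and 1 time in high-to-low replicate 1. DKK1, whose promoter is shown above, was 0.114 and 0.141 FPKM in high-potential cells and is listed at 0 in the other 4; corrected for depth, its 2 values were equal (0.114), so each may be as little as 1 fragment. In the fit without a filter, NKD1 had a log2 difference of 0.24 from HEC-1B accelerated (SE 0.0479, limma adjusted p = 0.147) and 0.23 from high-to-low libraries (limma adjusted p = 0.134), and DKK1 0.17 in both (limma adjusted p = 0.193 and 0.161).

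AXIN2, the most widely used readout of Wnt activity, overlapped between the groups. It was 0.565 and 0.364 FPKM in high-potential cells, 0.51 and 0.224 in HEC-1B accelerated cells, and 0.40 and 0.483 FPKM in high-to-low cells. Corrected for depth, the 6 values stand in the whole-number ratio 25 and 13 (high-potential), 21 and 9 (HEC-1B accelerated), and 19 and 20 (high-to-low), so the gene rests on few fragments if these are the counts. In the fit without a filter its log2 differences were 0.10, 0.02 and -0.08 for high-potential minus HEC-1B accelerated, high-potential minus high-to-low and HEC-1B accelerated minus high-to-low libraries (SE 0.137 each).

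Beyond the members, 82 of 83 other symbols of the pathway were listed and 47 were tested. Between high-potential and HEC-1B accelerated libraries 0 of 47 passed and 11 (7 higher, 4 lower) had an unadjusted p under 0.05, which is 23.4% against 14.3% of all genes. Between high-potential and high-to-low libraries 3 of 47 passed, WNT10A higher and CD44 and FOSL1 lower, against 0.799% of all genes. There, 14 had an unadjusted p under 0.05, which is 29.8% against 18.4% of all genes. Between HEC-1B accelerated and high-to-low libraries 0 passed limma's threshold and 1, PYGO1, had an unadjusted p under 0.05 (2.13%, against 0.972% of all genes). These counts hold WNT6, WNT10A and NKD2, which passed the filter only through the high-potential libraries. They also hold TLE4 and PYGO1, which passed it only with the high-to-low libraries. By role, 4 of 15 further ligand genes were tested, WNT6 and WNT10A among them. The others were WNT3, with 3.95 and 2.36 FPKM in high-potential cells, 0.91 and 2.72 in HEC-1B accelerated cells, and 1.38 and 1.74 FPKM in high-to-low cells, and WNT10B, whose highest value (2.52 FPKM) was in high-to-low replicate 2. Of the 13 nuclear cofactors, all tested, 5 were higher and 8 lower in high-potential than in HEC-1B accelerated libraries. Against high-to-low libraries the split was also 5 higher and 8 lower.

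Genes reported elsewhere as Wnt targets did not move one way. FOSL1, a subunit of the AP-1 factor, fell to 22.3 and 23.6 FPKM in high-potential cells, against 63.9 and 85.1 FPKM in high-to-low cells (log2 difference -1.64, SE 0.204, limma adjusted p = 0.0334), and was 55.0 and 50.7 FPKM in HEC-1B accelerated cells (-1.17, limma adjusted p = 0.0865). CD44, a hyaluronan receptor, was 7.54 and 4.72 FPKM in high-potential cells, 22.6 and 18.2 in HEC-1B accelerated cells, and 25.9 and 41.1 FPKM in high-to-low cells. It fell by 2.27 on the log2 scale against high-to-low (SE 0.312, limma adjusted p = 0.044), and its difference from HEC-1B accelerated was -1.61 (limma adjusted p = 0.106). The calls were lost in several alternatives, while the log2 difference lay between -1.85 and -1.44 for FOSL1 and between -2.59 and -1.95 for CD44 over all 15. Leaving out 1 library of either group, which leaves that group with 1, gave FOSL1 an adjusted p of 0.171 and 0.235 (high-potential replicate 1 or 2) and of 0.121 and 0.24 (high-to-low replicate 1 or 2). It was 0.0568 with no filter and 0.0667 with a term for the description number. For CD44 the same omissions gave 0.14 and 0.275, then 0.122 and 0.248, and leaving out HEC-1B accelerated replicate 1 or 2 gave 0.0554 and 0.0572. With all libraries, CD44 had 0.0509 with a pseudocount of 0.1, 0.075 with no filter, 0.0565 with only the groups compared and 0.0667 with the description number.

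Other reported targets had values in both directions and did not pass. MYC was 68.5 and 46.9 FPKM in high-potential cells, 37.5 and 42.7 in HEC-1B accelerated cells, and 34 and 30.5 FPKM in high-to-low cells (0.80 from high-to-low, limma adjusted p = 0.158). NKD2, a paralogue of NKD1, was 1.09 and 1.13 FPKM in high-potential cells, 0.123 and 0 in HEC-1B accelerated cells, and 0.319 and 0 FPKM in high-to-low cells (0.99 from HEC-1B accelerated, limma adjusted p = 0.18). It passed the filter only through the high-potential libraries. SOX9, a transcription factor of progenitor cells, was 28.0 and 14.7 FPKM in high-potential cells, 38.5 and 45.3 in HEC-1B accelerated cells, and 35.0 and 39.0 FPKM in high-to-low cells (-1.0 from HEC-1B accelerated, limma adjusted p = 0.219). BMP4, a secreted growth factor gene chosen after its values were seen, was 13.1 and 11.7 FPKM in high-potential cells, 6.41 and 8.52 in HEC-1B accelerated cells, and 6.16 and 8.49 FPKM in high-to-low cells (0.67 from HEC-1B accelerated, limma adjusted p = 0.294). Besides MYC, NKD2 and BMP4, the targets ID2, SP5, TBX3 and EPHB3 were higher in both high-potential libraries than in any other. The last 3 of them are below the filter. SOX9, CD44 and FOSL1 were lower in both. Of the tested targets, 63.6% did not overlap between high-potential and HEC-1B accelerated libraries, against 43.4% of all tested genes. Between high-potential and high-to-low it was 72.7%, against 51.1%. The share of all genes apart from both groups at once was not counted. Of 11 tested targets, 7 had a positive and 4 a negative difference from HEC-1B accelerated, and 6 and 5 from high-to-low.

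Among cofactors and partners of the complex, TNKS, the tankyrase gene whose product marks Axin for degradation, was 16.1 and 15.2 FPKM in high-potential cells, 9.37 and 10.8 in HEC-1B accelerated cells, and 7.56 and 6.70 FPKM in high-to-low cells. The 3 groups did not overlap, and the difference of high-potential from high-to-low was 1.04 (SE 0.196, limma adjusted p = 0.0789), short of the threshold. The Groucho-family corepressor TLE4 was 0.14 and 0.124 FPKM in high-potential cells, 1.89 and 0.33 in HEC-1B accelerated cells, and 1.57 and 1.86 FPKM in high-to-low cells (-1.26 from high-to-low, limma adjusted p = 0.175). TLE1, of the same family, was 5.49 and 4.67 FPKM in high-potential cells, 6.58 and 9.57 in HEC-1B accelerated cells, and 8.79 and 10.4 FPKM in high-to-low cells (-0.80 from high-to-low, limma adjusted p = 0.173). The family did not share a direction. TLE3 was 7.68 and 8.70 FPKM in high-potential cells, 6.25 and 2.97 in HEC-1B accelerated cells, and 5.62 and 3.02 FPKM in high-to-low cells. Its difference from high-to-low was 0.83 (limma adjusted p = 0.312), while TLE2 overlapped between the groups. PYGO1, a cofactor of beta-catenin, was 1.04 and 0.75 FPKM in high-potential cells, 0.464 and 0.76 in HEC-1B accelerated cells, and 1.61 and 2.03 FPKM in high-to-low cells (-0.81 for HEC-1B accelerated minus high-to-low, limma adjusted p = 1). TLE4 and PYGO1 passed the filter on low values only with the high-to-low libraries, so their differences are given as a description.

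**Figure D5:**
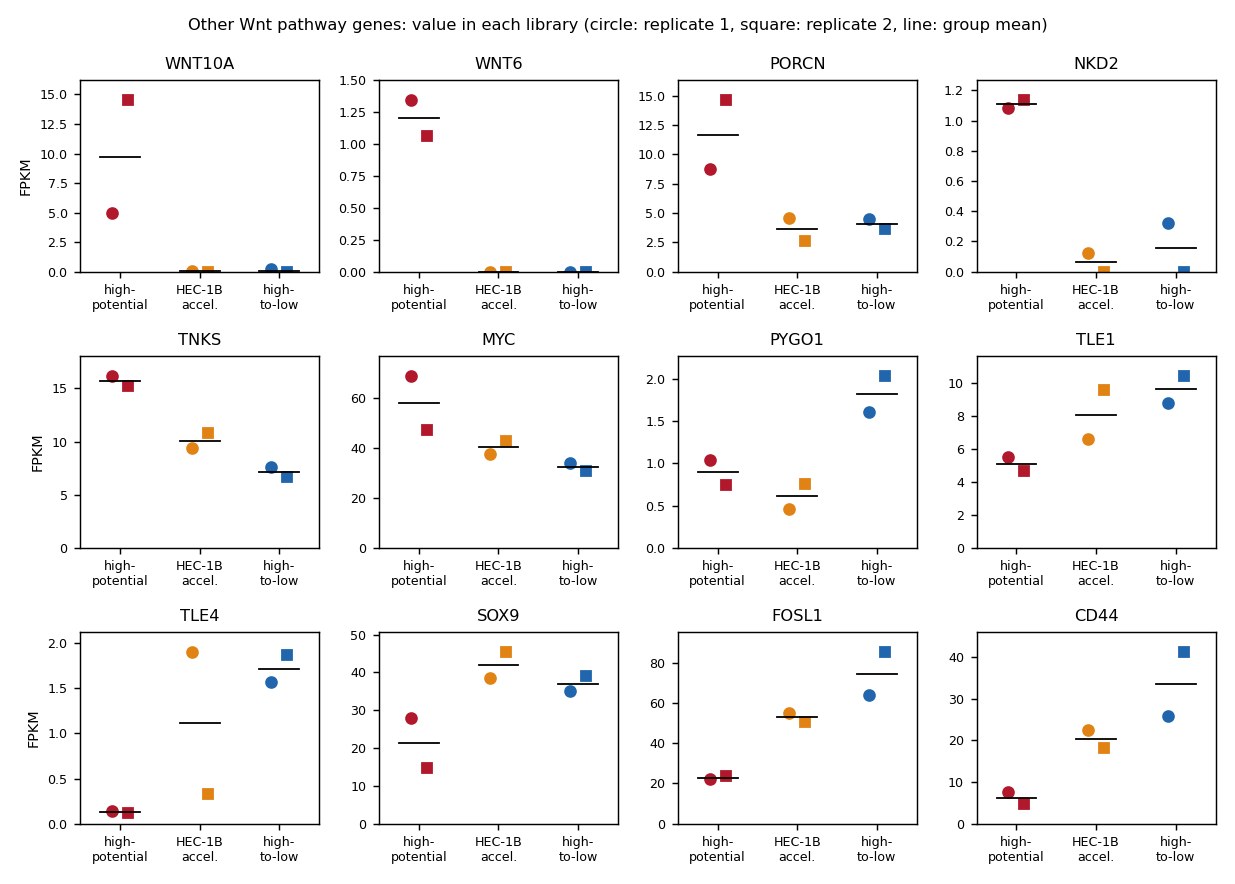
FPKM of 12 other Wnt pathway genes in each library (circle, replicate 1; square, replicate 2; line, group mean), each panel on its own scale from 0. WNT10A, WNT6, PORCN, NKD2, TNKS and MYC are highest in both high-potential libraries, and TLE1, TLE4, SOX9, FOSL1 and CD44 lowest; PYGO1 is lowest in the HEC-1B accelerated group on average.

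Within groups, the libraries of one group could differ as much as groups did. In the descriptions, the closing number starts with the same digits for replicate 1 of both accelerated groups and with other digits for replicate 2, and no label says what it stands for. Compared within the same start, 17 of 24 members (70.8%) had the same sign in high-potential minus HEC-1B accelerated, against 65% of all tested genes. For WNT7B the difference was 0.76 in replicate 1 and 2.16 in replicate 2, for FZD1 0.94 and 0.65, and for CTNNB1 -0.55 and -0.69. Both high-to-low libraries share the start of replicate 1, so no difference from them can be had within the other.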

How the data were processed

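Transcripts of 6 HEC-1B libraries were sequenced, 2 in each of 3 groups set by the sample titles. RNA came from a miRNeasy extraction, with SMART-Seq v4 cDNA and Nextera libraries, per the labels' protocols, and these kits keep no strand. The authors deposited, for each library, FPKM per gene symbol (fragments scaled to transcript length and to mapped fragments). TopHat2 2.0.13, Cuffnorm 2.2.1 and the hg19 build are named in the submitters' processing notes; for annotation and scaling, the sources used here name none.

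Genes that reached 1 FPKM in 2 or more libraries (12135 of 23284) entered 1 limma 3.58.1 model (R 4.3.3) of log2(FPKM + 1), with a variance trend, all 6 libraries and 3 residual degrees of freedom. Fold changes on that scale understate low genes. P-values are two-sided, with Benjamini-Hochberg adjustment over all kept genes and a threshold of 0.05; as no source says that cultures were separate, their spread may be technical. The fit was tested on simulated data. Alternatives varied the pseudocount, filter, scaling, trend, libraries and blocks.

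By rule, values in every library are given for kept members that passed, that had an unadjusted p under 0.05 without overlap, or that were the most abundant of their role, and for at most 12 other pathway genes by smallest p. Further genes shown (AXIN1, AXIN2, FZD4, LRP5, DVL3, TCF7L1, NKD1, DKK1, LEF1, APC, WLS, BMP4, WNT3, WNT10B, TLE2, TLE3 and the genes listed once above 0) were chosen after their values were seen. The members and lists were chosen with earlier results of these data known. Relative depth is the most frequent ratio of values under 0.3 FPKM. Gene order and promoters are from RefSeq (GRCh38.p14), to which 21945 symbols and all 34 members matched; no coordinates in the authors' build are given. A marker result is not reported here.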

Additional observations from a re-analysis of the deposited data

How the results depend on the processing

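No member passed limma's threshold in any of the 3 comparisons under any of the 15 alternatives, with 1 exception: with the replicate number of the titles as a replicate block, 1 member (CTNNB1, adjusted p = 0.0439, log2 difference -0.62) passed between high-potential and high-to-low libraries. No label calls that number a pairing. Deviations of same-numbered libraries from their group means correlated at 0.187, 0.158 and 0.281 over genes between the groups. With the block, other pathway genes passed too: WNT10A (0.0269), FOSL1 (0.0304) and CD44 (0.0493) against HEC-1B accelerated, and TNKS (0.0321) and WNT6 (0.0455) against high-to-low. For WNT10A and WNT6, which passed the filter only through the high-potential libraries, all calls in this section are a description. Of 384 re-fits of named pathway differences outside the members, 26 lost and 10 gained a call. Only the differences of WNT10A, FOSL1 and CD44 from high-to-low had a call to lose. It stayed in 5, 9 and 5 of 15 alternatives, in that order of genes. Of 132 re-fits for members, none of which passed before, 1 gained a call.

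Counts over all genes moved far more. Between high-potential and HEC-1B accelerated libraries 60 genes passed, against 31 with a pseudocount of 0.1, 38 with no filter, 39 with only the groups compared, 546 with the replicate block, 105 with a term for the description number, and 14 to 38 without 1 library. Between high-potential and high-to-low the count was 97, against 54, 39 (no filter), 944 (block), 54 (description number) and 13 to 115 without 1 library. Between HEC-1B accelerated and high-to-low it was 2, against 4 with the pseudocount of 0.1, 7 with only the groups compared, 7 with the description number and 4 to 7 without 1 library. The cause was not tested. In that comparison, with all libraries, 118 genes and 0 members had an unadjusted p under 0.05.

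Scaling by median ratios or quantiles moved the median of all genes by less than 0.1 on the log2 scale. Members with few fragments, such as AXIN2, DKK1 and NKD1, were fitted only in the alternative without a filter.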
